A study of Xenopus tropicalis with 192 samples.

Results

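The comparison described here is between tadpoles of 2 ages: 2 libraries of 177-day tadpoles from the strain labelled ZBTB14 KO and 3 libraries of 89-day tadpoles from the strain labelled Superman F9 WT. These 5 samples, of 192 in the series, are defined by their labels, and all measured CpG sites were compared. Methylation was assayed by targeted bisulfite sequencing (TBS). Bisulfite turns unmethylated cytosine into a base sequenced as T, so the fraction of reads with C at a CpG, from 0 to 1, is its methylation level. The other 187 samples of the series are hindlimb webbing skin punches of adult frogs. They come from 32 tanks and were sequenced on lanes 1 and 2. By their labels they cover a wide span of adult ages and many strains, among them transgenic and knockout lines. The 31 adults under 1 year serve as references below. Their strains are NIGERIAN F8 (269 days), Xtr.Tg(cryga:GFP)Grngr (273 days) and SUPERMAN F8 (332 days). No tank mixed ages or strains, so age in the adults cannot be fully separated from strain and tank. All animals share a Nigerian genetic background (NXR_1018). By the labels the whole tadpole went into the DNA extraction, tadpole ages are approximate, and neither the sex nor the stage of metamorphosis is given. The labels do not say what allele ZBTB14 KO stands for or whether the animals were homozygous, and they do not say what the Superman line carries, only that its F9 animals were WT. The tadpoles of each age came from a single tank. Age, strain and tank therefore change together and cannot be told apart, and p-values measure only the spread between tank mates.

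A frog tadpole becomes an adult through metamorphosis, driven by thyroid hormone, in which the tail and gills are lost, limbs grow and the larval skin is replaced by adult skin. In vertebrate genomes most CpG sites are methylated, while the promoters and surroundings of genes that pattern the embryo are often unmethylated, and each cell type keeps its own set of unmethylated regulatory sites. A whole tadpole holds all of these cell types at once, so a level of 0.5 can be a share of cell types as well as a share of DNA copies within 1 of them. ZBTB14 is a zinc finger transcription factor that acts in early patterning of Xenopus laevis embryos. Of the annotated gene zbtb14 itself (v10.0 genome, chr6:106431250-106443234) no CpG was tested. The nearest tested CpG lay 37.5 kb away and was not called different between the tadpoles.

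After a filter that removes CpGs at 3 separate levels across the frogs, 6174 of 6717 CpG sites were tested. They were captured because they lie in regions whose methylation had followed age in adult webbing skin, so they are no random sample of the genome. They form 2141 regions when CpGs up to 500 bp apart are joined. The exact read depth behind a single value is unknown beyond the minimum of 100 reads. In the study's sample sheet both 177-day libraries had a lower mean depth than every 89-day library, and all 5 were sequenced on the same lane with the adults under 1 year. The part of depth in the results was tested only by weighting the samples by it.

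The label of the 177-day libraries was set against the 31 webbing punches of adults under 1 year, which come from 3 strains: 19 frogs of NIGERIAN F8 at 269 days, 3 frogs of Xtr.Tg(cryga:GFP)Grngr at 273 days and 9 frogs of SUPERMAN F8 at 332 days. The 3 frogs of 273 days bear the word tadpole in their titles, but their tissue is labelled hindlimb webbing. By the measured CpGs, the 177-day libraries labelled whole tadpole were about as far from each adult group as webbing punches of another strain were. The root mean square (RMS) difference in methylation level from the NIGERIAN F8 mean was 0.0549 and 0.0536 in the 177-day tadpoles, and 0.119, 0.119 and 0.124 in the 89-day tadpoles. For comparison, the SUPERMAN F8 adults lay at 0.0475 to 0.0572 from that mean and the Xtr.Tg(cryga:GFP)Grngr adults at 0.0526 to 0.0547. Relative to the Xtr.Tg(cryga:GFP)Grngr mean, the 177-day tadpoles stood at 0.065 and 0.0629, the 89-day tadpoles at 0.121, 0.12 and 0.126, and adults of the other 2 strains at 0.0545 to 0.0728. Relative to the SUPERMAN F8 mean, the line whose name the 89-day tadpoles share, the 177-day tadpoles stood at 0.053 and 0.0545, the 89-day tadpoles at 0.117, 0.119 and 0.123, and the other adults at 0.047 to 0.0603. The 2 groups of tadpoles did not overlap in any of the 3 distances. The mean differences, 177-day minus 89-day, were -0.0665, -0.0587 and -0.066, each at the smallest p that an exact two-sided permutation test of 2 against 3 samples can give (p = 0.1, 10 assignments).

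**Figure D1:**
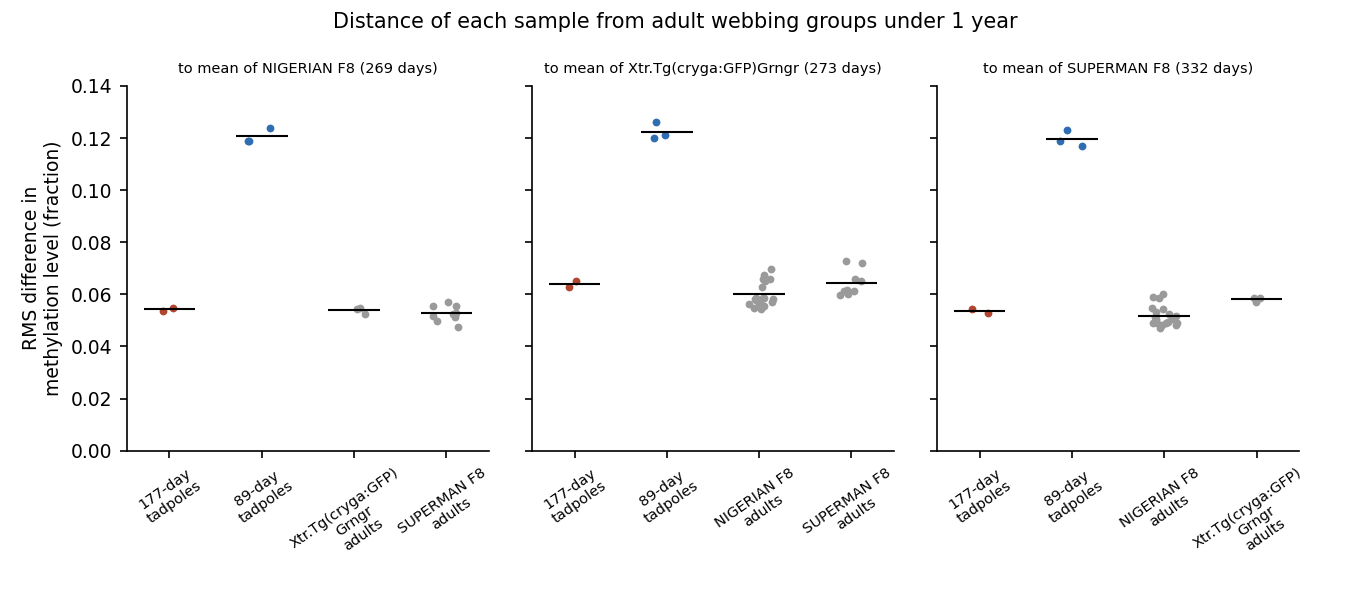
RMS difference in methylation level (fraction, over 6174 CpGs) of each sample from the mean of 3 adult webbing groups, 1 panel per adult group. Points are samples and horizontal lines are group means. The 2 177-day tadpoles lie among the adults of other strains, and the 3 89-day tadpoles lie at 0.117 to 0.126.

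A limma fit of the 36 samples under 1 year, chosen after the tadpole values were seen, gave the same order in counts of CpGs (adjusted p below 0.05). Against NIGERIAN F8 adults, 268 CpGs (4.34%) differed in 177-day tadpoles and 3248 (52.6%) in 89-day tadpoles. Against Xtr.Tg(cryga:GFP)Grngr adults the counts were 241 (3.9%) in 177-day and 2212 (35.8%) in 89-day tadpoles. Against SUPERMAN F8 adults they were 204 (3.3%) in 177-day and 2839 (46%) in 89-day tadpoles. Pairs of adult groups differed at 322 to 358 CpGs (5.22% to 5.8%). These comparisons share samples, and their group sizes differ, so the counts are given side by side only. Whether the 177-day animals had finished metamorphosis, or which tissue entered these 2 libraries, was not tested. They are called 177-day tadpoles below, by their label, and every result rests on them, so none can be given without them.

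The 5 libraries separated into the 177-day and the 89-day group. The 177-day tadpoles differed from each other by an RMS of 0.0532, the 89-day tadpoles differed from each other by 0.039 to 0.0467, and the 6 pairs across ages differed by 0.121 to 0.128. Webbing punches of a single adult group differed by 0.0381 to 0.0727, so the spread within each tank of tadpoles was that of adults within a group. Among the 89-day tadpoles, tadpole 3 stood somewhat apart: it had the highest methylation level of the 3 at 4422 CpGs (71.6%). The 177-day tadpoles were more even, with tadpole 1 the higher of the pair at 3586 CpGs (58.1%).

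Mean methylation over the tested CpGs was 0.846 and 0.842 in the 177-day tadpoles, against 0.865, 0.858 and 0.883 in the 89-day tadpoles. Every 177-day tadpole was below every 89-day tadpole, but 89-day tadpole 3 spread its group widely. The means were 0.844 ± 0.00314 (SD, n = 2) in 177-day and 0.868 ± 0.0129 (SD, n = 3) in 89-day tadpoles. The difference of -0.0241 had an exact two-sided permutation p of 0.2, above the smallest possible value of 0.1. The median over CpGs moved the other way, with 0.911 and 0.905 in 177-day tadpoles against 0.898, 0.891 and 0.92 in 89-day tadpoles, and a group difference of 0.00492. The share of CpGs below a level of 0.5 was 5.64% and 5.46% in the 177-day tadpoles, against 2.02%, 2.2% and 1.99% in the 89-day tadpoles, and it was 5.22% to 6.14% in the 31 adults under 1 year. The share below 0.2 was 1.46% and 1.25% in 177-day tadpoles, against 0.648%, 0.664% and 0.599% in 89-day tadpoles. At 4462 of 6174 CpGs (72.3%) the group means differed by less than 0.05. The median difference over all tested CpGs was 0.00445, and 2741 had a lower mean in 177-day tadpoles.

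The next question was which CpGs differed between the tadpole ages. With limma on the logit of the methylation level, 721 CpGs (11.7% of those tested) were lower in 177-day tadpoles and 290 (4.7%) were higher, at an adjusted p below 0.05. The lower sites lay in 489 regions and the higher sites in 195. In none of the 1011 called CpGs (16.4%) did the tadpoles of the 2 ages overlap. Over all tested CpGs the groups did not overlap, with 177-day tadpoles lower, at 1584 (25.7%) and, with 177-day tadpoles higher, at 1342 (21.7%).

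Below, a fall is a lower and a rise a higher level in 177-day than in 89-day tadpoles. These are different animals of different strains, so no change over time was followed. In level, the falls were larger than the rises. A level cannot exceed 1, so a CpG with a high level has little room to rise. On the logit scale used for the test, the largest differences at CpGs of the named regions were 6.94 (Chr5:149616516) and -6.28 (Chr1:55025414). Sizes on that scale were not compared over all called CpGs. The called CpGs that fell had a median mean level of 0.624 in 177-day and 0.865 in 89-day tadpoles, and their median difference was -0.204. Of these, 89 fell by 0.5 or more, 280 by 0.2 to 0.5, 260 by 0.1 to 0.2 and 92 by less. The called CpGs that rose had a median of 0.938 in 177-day and 0.842 in 89-day tadpoles and a median difference of 0.0856. Only 10 of these rose by 0.5 or more, 31 by 0.2 to 0.5 and 86 by 0.1 to 0.2, and the other 163 by less than 0.1. The count of rises depended on single tadpoles. It was 147 without 177-day tadpole 1, 138 without 89-day tadpole 1, 154 without 89-day tadpole 2 and 508 without 89-day tadpole 3. The count of falls stayed between 481 and 666.

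**Figure D2:**
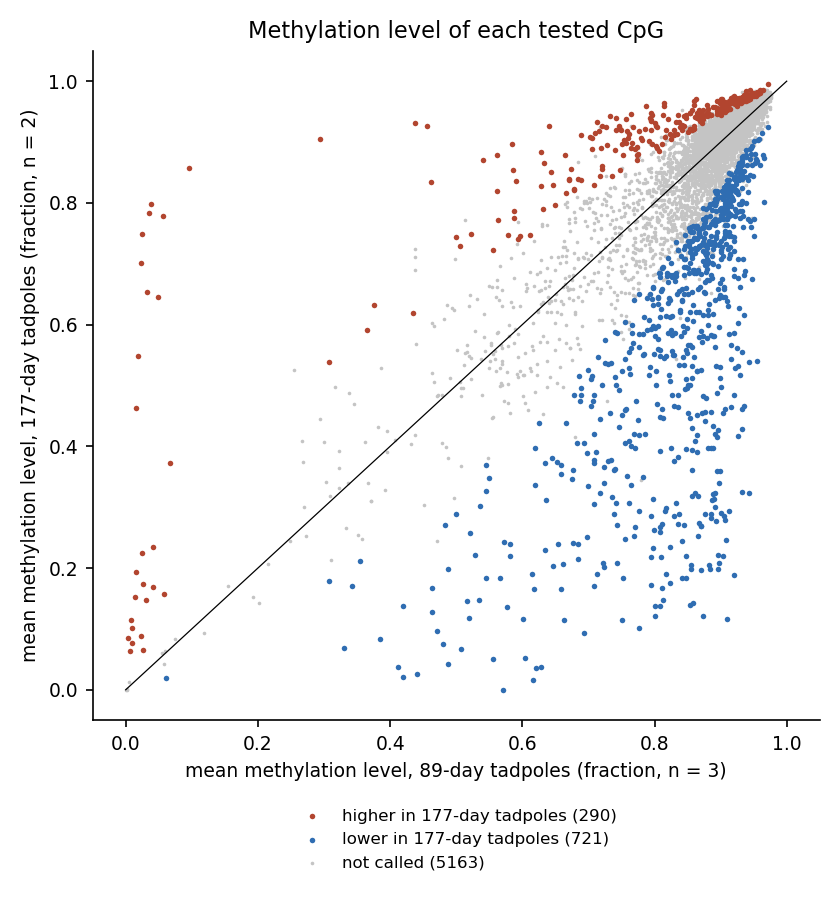
Mean methylation level (fraction) of each of 6174 CpGs in 177-day tadpoles (y axis, n = 2) and in 89-day tadpoles (x axis, n = 3), with the line of equality. Called CpGs are coloured: the 721 lower ones lie below the line and reach farther from it than most of the 290 higher ones, which include a column of sites close to 0 in 89-day tadpoles.

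At most tested CpGs, and at most called ones, the 177-day tadpoles were on average within the levels of adult webbing skin. Their mean was inside the lowest to highest value of the 31 adults under 1 year at 609 of the 721 lower CpGs (84.5%), and the mean of the 89-day tadpoles was inside it at 105 (14.6%). Among the 290 higher CpGs, the 177-day mean was inside at 264 (91%) and the 89-day mean at 93 (32.1%). Over all tested CpGs the shares were 92.6% for 177-day and 63.4% for 89-day tadpoles. Called CpGs were picked by the difference between the tadpole groups, so their low 89-day shares follow in part from that choice. Of the 721 lower CpGs, the 177-day mean was above every one of these adults at 30 and below every one at 82, whereas the 89-day mean was above every adult at 615. Of the 290 higher CpGs, the 177-day mean exceeded every adult at 18 and fell below every adult at 8, and the 89-day mean was below every adult at 197.

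Of the 6 largest rises, 1 per region, 5 lay in or near genes of transcription factors, a count made after the values were seen. Single CpGs are named by the position in the deposited table, which in the capture probes falls on the G of the CpG, in the v10.0 genome. Gene names come from RefSeq for the assembly UCB_Xtro_10.0 by the distance to the span of the gene. Exons, UTRs and strand were not used here. At Chr8:111154889, inside the span of meis2, which encodes a homeodomain cofactor of Hox proteins, the level was 0.876 and 0.838 in 177-day tadpoles, against 0.092, 0.104 and 0.0916 in 89-day tadpoles. The logit difference was 5.81 (SE 0.27, limma adjusted p = 1.19e-05), and the 31 adults ranged from 0.704 to 0.888. At Chr5:149616539, inside tfap2b, the gene of the AP-2 beta transcription factor of neural crest and limb, the level was 0.812 and 0.784 in 177-day tadpoles, against 0.043, 0.0361 and 0.0366 in 89-day tadpoles. All 5 tested CpGs of that region rose, and their 177-day values of 0.686 to 0.812 lay at the top of or above the adult range, while no 89-day value exceeded 0.081. The region (chr5:149616516-149616548) is the one with the most rises, level with 2 others.

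At Chr2:146102247, inside hoxc9 and within 5 kb of hoxc10, homeobox genes that set position along the trunk, the level was 0.658 and 0.633 in 177-day tadpoles, against 0.033, 0.0588 and 0.0524 in 89-day tadpoles. At Chr6:39211613, 5821 bp from sp8, which encodes a zinc finger factor needed for limb outgrowth in the mouse, it was 0.673 and 0.635 in 177-day tadpoles, against 0.0304, 0.0262 and 0.041 in 89-day tadpoles. At Chr4:104455180, inside gfi1, the gene of a repressor known from blood cell formation, it was 0.536 and 0.56 in 177-day tadpoles, against 0.0147, 0.0192 and 0.0198 in 89-day tadpoles. At these 3 CpGs every 177-day value lay within the range of the young adults, and every 89-day value was near 0. At Chr2:156652100, 52121 bp from spata13, the level was 0.909 and 0.901 in 177-day tadpoles, against 0.343, 0.255 and 0.283 in 89-day tadpoles. Here the adults themselves ranged widely, from 0.255 to 0.961, and the call was lost when the spread was taken from the 36 samples under 1 year. The same holds for Chr1:4705287, 11180 bp from LOC116408260, with 0.942 and 0.911 in 177-day tadpoles against 0.366, 0.279 and 0.724 in 89-day tadpoles.

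The DNA around 3 of these sites is shown because it carries the largest rises for which a capture probe was read. Measured CpGs are in capitals, in forward orientation of the v10.0 genome as the probe table gives it. Within genes only the 30 bases around the CpG are given (chr2:146102232-146102261 for hoxc9, chr4:104455165-104455194 for gfi1), and for the intergenic site the whole probe (chr2:156652084-156652203).
hoxc9: cataccaaaccccaCGccttttacctcctt
gfi1: ttCGatctcaattaCGttcacaagtaattt
spata13: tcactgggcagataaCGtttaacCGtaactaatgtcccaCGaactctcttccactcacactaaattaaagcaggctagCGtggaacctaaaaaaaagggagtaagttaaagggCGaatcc

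A group of CpGs stood close to 0 in the 89-day tadpoles. It was picked after the values were seen and by the 89-day values themselves, so it is given with no test. Of the tested CpGs, 35 had an 89-day mean below 0.1. Of these, 26 were called higher in 177-day tadpoles and 1 lower, where 4.7% and 11.7% of all tested CpGs were called in these directions. Their median level was 0.152 in 177-day tadpoles, 0.0265 in 89-day tadpoles and 0.165 in adults under 1 year. The set includes the sites of tfap2b, meis2, hoxc9, sp8 and gfi1 above, and also sites in nbea, traf3, heg1, tlcd3b and LOC genes. The sites in traf3, heg1 and tlcd3b were not called. At Chr2:152386669 in nbea the level was 0.343 and 0.402 in 177-day tadpoles, against 0.0649, 0.0671 and 0.0691 in 89-day tadpoles. That is a larger rise than at the 4 further sites that follow. These 4 were picked after their values were seen, and all lie in genes of transcription factors. At Chr2:82040988, inside tfap2e, an AP-2 family gene, the level was 0.204 and 0.243 in 177-day tadpoles, against 0.0323, 0.0199 and 0.0222 in 89-day tadpoles. At Chr5:124980936, inside pax3, a gene of neural crest and muscle precursors, it was 0.21 and 0.258 in 177-day tadpoles, against 0.0676, 0.0287 and 0.0269 in 89-day tadpoles. At Chr5:36206616, inside nkx2-2, a homeobox gene of the ventral neural tube, it was 0.163 and 0.185 in 177-day tadpoles, against 0.0282, 0.0222 and 0.0303 in 89-day tadpoles. At Chr4:105190693, inside barhl2, a homeobox gene of the nervous system, it was 0.101 and 0.0671 in 177-day tadpoles, against 0.00352, 0.00505 and 0 in 89-day tadpoles. In the other direction, 31 CpGs had a 177-day mean below 0.1, with a median of 0.0519 in 177-day and 0.33 in 89-day tadpoles, of which 17 were called lower and 5 higher.

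At the 10 largest falls, 1 per region, no 89-day tadpole was below 0.757. At Chr1:55025414, 42 bp from the end of tmem131l, the level was 0.0968 and 0.138 in 177-day tadpoles, against 0.878, 0.924 and 0.927 in 89-day tadpoles. Its logit difference was -6.28 (SE 0.34, limma adjusted p = 1.36e-05), and the adults ranged from 0.0935 to 0.159. At Chr9:33879481, inside abcc1, the gene of a drug exporter of the ABC family, the level was 0.203 and 0.173 in 177-day tadpoles, against 0.915, 0.921 and 0.927 in 89-day tadpoles. At Chr8:39251166, inside klf8, which encodes a Krüppel-like transcription factor, it was 0.153 and 0.131 in 177-day tadpoles, against 0.88, 0.82 and 0.875 in 89-day tadpoles. At each of these 3 CpGs the 177-day values lay in the adult range, and no 89-day value was below 0.82.

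Falls of similar size were found in or near 4 other named genes. At Chr6:32911283, 35226 bp from col1a2, the gene of the second chain of type I collagen, the level was 0.168 and 0.249 in 177-day tadpoles, against 0.891, 0.889 and 0.911 in 89-day tadpoles. The adults ranged from 0.049 to 0.214 there, so that 177-day tadpole 2 stayed above all of them. At Chr6:69480984, inside ahrr, the repressor of the aryl hydrocarbon receptor, it was 0.22 and 0.221 in 177-day tadpoles, against 0.893, 0.89 and 0.925 in 89-day tadpoles. At Chr9:72581383, 8295 bp from rbms1, which encodes an RNA-binding protein, it was 0.186 and 0.213 in 177-day tadpoles, against 0.903, 0.884 and 0.899 in 89-day tadpoles. At Chr2:130859599, 67926 bp from pcdh17, a protocadherin gene, it was 0.13 and 0.0714 in 177-day tadpoles, against 0.786, 0.757 and 0.787 in 89-day tadpoles. The adults ranged from 0.102 to 0.332 at this site, so that 177-day tadpole 2 was below all of them. The other 3 of the 10 largest falls, near LOC116406882 and LOC108645367 and inside LOC100145446, ranged from 0.121 to 0.213 in 177-day tadpoles and from 0.841 to 0.916 in 89-day tadpoles.

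**Figure D3:**
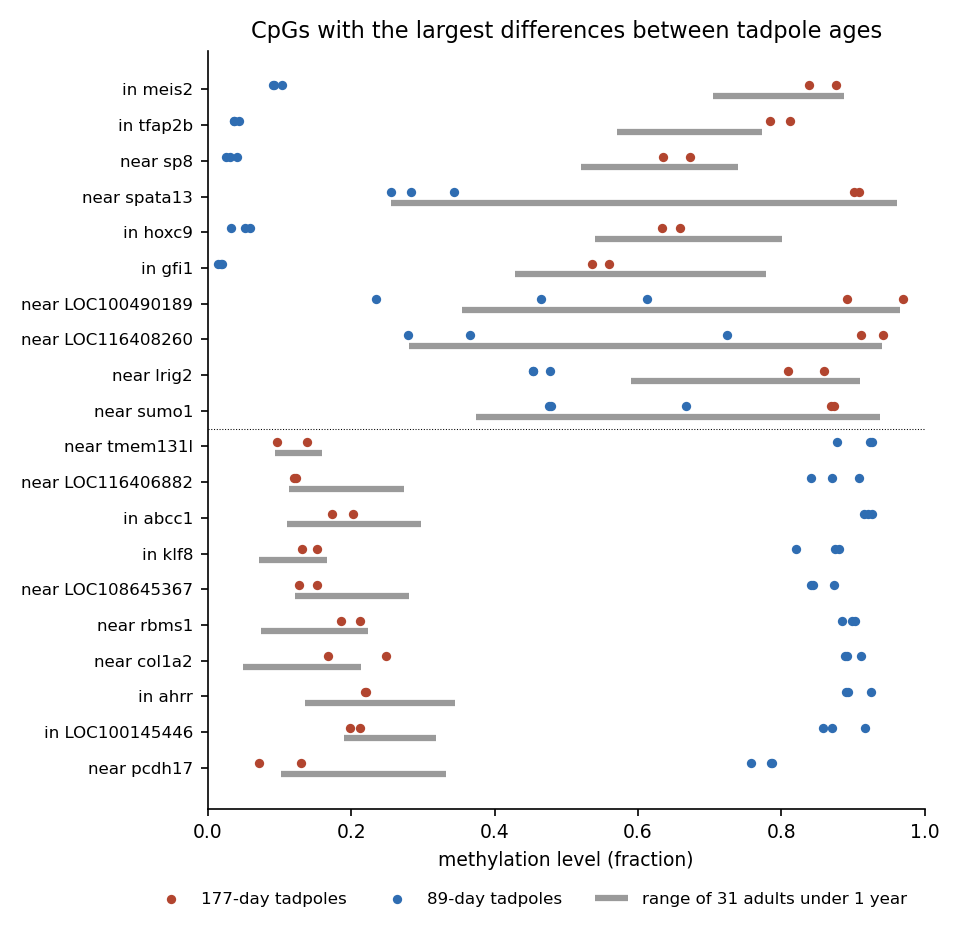
Methylation level (fraction) at the 10 called CpGs with the largest rise (above the dotted line) and the 10 with the largest fall (below it), 1 per region, named by the nearest gene. Points are single tadpoles and grey bars span the 31 adults under 1 year. Both red 177-day points are inside the grey bar at 15 of the 20 sites, and all 3 blue 89-day points are outside it at 16. The sites were chosen by the difference between the tadpole groups, so these counts are no test.

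Called CpGs of the same region mostly had the same direction. Of 668 regions with a called CpG, 452 had a single one and 216 had at least 2. In 141 of these all calls were falls, in 59 all were rises, and 16 held both directions. The region with the most falls was chr1:32822068-32823355, between genes and 435700 bp from LOC108645172, with 9 falls among 22 tested CpGs. In its left part, at Chr1:32822068, the level was 0.192 and 0.176 in 177-day tadpoles, against 0.842, 0.826 and 0.856 in 89-day tadpoles. At Chr1:32822246 it was 0.275 and 0.284 in 177-day tadpoles, against 0.92, 0.891 and 0.911 in 89-day tadpoles. In its right part, at Chr1:32823283, it was 0.986 and 0.963 in 177-day tadpoles, against 0.948, 0.959 and 0.962 in 89-day tadpoles, and this site was not called. Of the 9 called CpGs of the region, 6 were its leftmost ones, and the others were Chr1:32822547, Chr1:32823038 and Chr1:32823135. The 2 probes over its left part (chr1:32822043-32822162 and chr1:32822188-32822307) are printed because all 6 of their measured CpGs fell.
left probe: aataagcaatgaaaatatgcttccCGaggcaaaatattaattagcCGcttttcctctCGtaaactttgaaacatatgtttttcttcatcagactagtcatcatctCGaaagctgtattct
right probe: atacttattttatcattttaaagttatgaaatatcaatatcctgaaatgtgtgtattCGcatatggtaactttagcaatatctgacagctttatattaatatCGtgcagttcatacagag

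**Figure D4:**
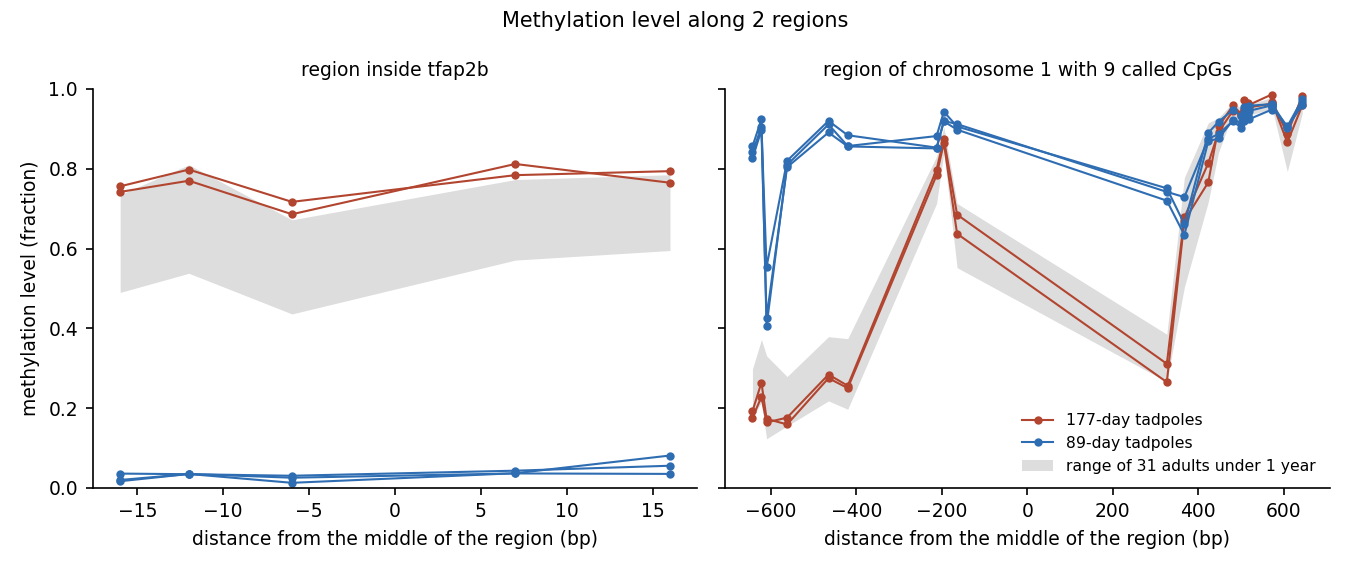
Methylation level (fraction) of every tested CpG along 2 regions against the distance from the middle of the region (bp): the region inside tfap2b (left) and the region of chromosome 1 with 9 called CpGs (right). Lines are single tadpoles and the grey band spans the 31 adults under 1 year. The 177-day lines are at the top of or above the band on the left, at 0.686 or higher, and follow it on the right. The 89-day lines are outside the band on the left, and on the right up to Chr1:32823038. From Chr1:32823079 on they lie in the band or close to it.

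The other regions with the most falls were smaller shifts. They had 7 falls of 13 CpGs at chr2:86245876-86246239 near stk40, 6 of 6 at chr1:33633653-33633793, 6 of 20 at chr10:5388-5968 and 6 of 23 at chr1:33202524-33203658. Their called CpGs averaged 0.649, 0.486, 0.588 and 0.745 in 177-day tadpoles, and 0.835, 0.795, 0.785 and 0.921 in 89-day tadpoles. Among the regions with the most rises, those inside morn1 (5 of 5 CpGs, chr7:90708764-90708865) and inside dmrta1 (4 of 4, chr1:121364621-121364709), a gene of the doublesex family, averaged 0.917 and 0.888 in 177-day tadpoles, and 0.726 and 0.678 in 89-day tadpoles. In a region 115321 bp from bmp4 (4 of 5 CpGs, chr8:94860868-94860954) the called CpGs averaged 0.901 in 177-day and 0.781 in 89-day tadpoles. In one 21185 bp from LOC116406784 (5 of 27) the called CpGs averaged 0.971 in 177-day and 0.925 in 89-day tadpoles. Here too the adult means of the called CpGs, 0.914, 0.872, 0.888 and 0.965, lay closer to the 177-day tadpoles. Measured CpGs are dense at chr1:32501850-33594330, where 1008 of the tested CpGs lie in 178 regions. In that block 96 CpGs fell (9.52%) and 16 rose (1.59%), and elsewhere 12.1% fell and 5.3% rose.

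The called CpGs shared several features, given here as counts beside those of all tested CpGs, of which 11.7% fell and 4.7% rose. Falls were frequent among CpGs of intermediate level and rises among those of low level. Of 1075 CpGs with a mean of 0.2 to 0.8 over the 5 tadpoles, 440 (40.9%) fell and 66 (6.14%) rose. Of 5069 CpGs above 0.8, 280 (5.52%) fell and 207 (4.08%) rose. Of 30 CpGs with a mean below 0.2, 1 (3.33%) fell and 17 (56.7%) rose. This mean uses the tadpoles themselves, so a CpG that differs strongly tends to be intermediate. Falls were also frequent at isolated sites. Of 918 CpGs that were alone in their region 194 (21.1%) fell, and of 2857 CpGs in regions of 5 or more 164 (5.74%) fell, while rises made up 4.58% and 3.78% of these classes. By place, 14.1% of CpGs inside a gene fell, 11.3% of those between genes and 5.35% of those within 1 kb of a gene end. The share of falls was between 9.14% and 15.1% on each of the 10 chromosomes.

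Probe sequence was read for the 2787 tested CpGs inside a probe of the part of the probe table used here. Both neighbours of the CpG could be read for 2769 of them. Where both neighbours of the CpG were A or T, 158 of 848 CpGs (18.6%) fell and 23 (2.71%) rose. In every other context 162 of 1921 (8.43%) fell and 100 (5.21%) rose. CpGs written in lower case in the probe table, which marks repeats by custom, fell at 35 of 836 sites (4.19%), and those in upper case at 286 of 1951 (14.7%). The motif GCGCGC was in the probes of only 15 tested CpGs, of which 2 fell and 1 rose. CpG density, context and repeats overlap each other, and their separate parts were not tested.

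The tested CpGs lie near few genes of the processes that separate a tadpole from a frog, so gene lists could be read for only some members. Counted within 5 kb of a gene, the list of Hox genes and their cofactors had CpGs at 6 of 42 annotated genes. Of its 7 CpGs, 5 rose and 0 fell, where 4.7% of all tested CpGs rose and 11.7% fell. The median difference of the list was 0.107, beside 0.00445 over all tested CpGs. Besides meis2 and hoxc9 these were 2 sites shared by hoxb2 and hoxb3, and 1 of 3 sites in meis1. At Chr10:12019901 in hoxb2 the level was 0.111 and 0.0909 in 177-day tadpoles, against 0.0153, 0.0105 and 0.00298 in 89-day tadpoles. Both 177-day values were below the young adults there, which ranged from 0.116 to 0.269. At Chr5:31351006 in meis1 the level was 0.846 and 0.799 in 177-day tadpoles, against 0.645, 0.672 and 0.716 in 89-day tadpoles, and this call was lost when 177-day tadpole 1, 89-day tadpole 1 or 89-day tadpole 2 was left out. The thyroid hormone and metamorphosis list was reached at 3 of 41 genes, with 3 falls and 1 rise among 7 CpGs (11.7% and 4.7% of all tested CpGs) and a median difference of 0.00739. Of the falls, 2 were at st3gal1, which encodes a sialyltransferase and whose place in this list was not checked. Only 1 was at ncoa2, a coactivator of nuclear receptors. At Chr6:143854085, 3923 bp from st3gal1, the level was 0.491 and 0.457 in 177-day tadpoles, against 0.759, 0.77 and 0.786 in 89-day tadpoles, a call that was lost when the spread came from all 192 frogs. At Chr6:120181988, inside ncoa2, it was 0.803 and 0.77 in 177-day tadpoles, against 0.928, 0.926 and 0.946 in 89-day tadpoles. The young adults ranged from 0.813 to 0.924 there, above both 177-day values and below every 89-day value. The 4 CpGs at thrb, the thyroid hormone receptor beta gene, differed by 0.01 to 0.03, and 1 of them was called higher.

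Of the keratin and skin list, 2 of 58 genes had tested CpGs, with 1 fall among 3 sites (11.7% of all tested CpGs fell) and a median difference of 0.0167. The fall was at pkp1, the gene of plakophilin 1, a protein of the desmosomes that hold skin cells together. The level at Chr2:63782219, inside the gene, was 0.483 and 0.574 in 177-day tadpoles, against 0.929, 0.916 and 0.92 in 89-day tadpoles, and 0.381 to 0.561 in the young adults. Its 30 bases (chr2:63782204-63782233) are shown as the single called site of a skin gene.
pkp1: tttataaaggtgaaCGtgctctttaaaggg
Both 177-day values were well below the 89-day values, and 1 of them was above the adults. The 2 CpGs at the keratin gene krt62 differed by 0.02 and 0.04 and were not called. In the zinc finger list, 8 of 202 genes had 14 tested CpGs, of which 4 rose and 1 fell (4.7% and 11.7% of all tested CpGs). Its median difference, 0.00759, was close to the 0.00445 of all tested CpGs. At Chr3:119260313, 2238 bp from znf703, the level was 0.908 and 0.929 in 177-day tadpoles, against 0.769, 0.681 and 0.775 in 89-day tadpoles. At Chr4:71002290, inside znf536, it was 0.677 and 0.734 in 177-day tadpoles, against 0.889, 0.874 and 0.864 in 89-day tadpoles. The lists of DNA methylation machinery and of BMP and Wnt signalling had 2 and 3 CpGs, with no call. The lists of globins and of MHC and antigen presentation had no tested CpG, so these larval and adult markers could not be read.

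The panel was chosen for age in adults, so the tadpole differences were set beside the Spearman correlation with age over the 187 adults, which the tadpoles did not enter. Adult age is tied to strain and tank, so this correlation cannot be read as age alone. At the 721 CpGs that fell the median correlation was -0.18, and 269 (37.3%) had a correlation of -0.3 or lower. At the 290 that rose the median was -0.11, and 39 (13.4%) had -0.3 or lower. Over all tested CpGs the median was -0.16 and the share 24.1%. A negative correlation of any size was found at 64.1% of the falls, 72.4% of the rises and 80% of all tested CpGs. A correlation of 0.3 or higher was found at 11.9% of the falls, 8.97% of the rises and 4.1% of all tested CpGs. The 2 CpGs with the most negative and the 2 with the most positive adult correlation did not all move the way they moved in adults. Chr3:36676488, 177 bp from rnf14.2, with an adult correlation of -0.76, was at 0.672 and 0.63 in 177-day tadpoles, against 0.851, 0.833 and 0.865 in 89-day tadpoles, a fall. Chr6:88833379, 63848 bp from LOC116411469, also at -0.76 in adults, was at 0.902 and 0.924 in 177-day tadpoles, against 0.939, 0.955 and 0.949 in 89-day tadpoles (limma adjusted p = 0.0937). Chr1:65436019, 101454 bp from ankrd50, with 0.76 in adults, was at 0.242 and 0.169 in 177-day tadpoles, against 0.665, 0.674 and 0.646 in 89-day tadpoles, a fall at a site that rises with age in adults. Chr4:98635904, inside cop1, with 0.68 in adults, was at 0.401 and 0.567 in 177-day tadpoles, against 0.448, 0.47 and 0.516 in 89-day tadpoles, and the ages overlapped.

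An elastic net clock trained on the logarithm of age in the 187 adults alone gave the tadpoles different ages. The predicted age was 1.04 and 1.09 years in the 177-day tadpoles (0.485 years by the label), against 0.418, 0.51 and 0.321 years in the 89-day tadpoles (0.244 years by the label). With this model all 5 predictions were above the labelled age, and those of the 2 ages did not overlap. The means were 1.06 ± 0.0378 years (SD, n = 2) in 177-day and 0.416 ± 0.0946 years (SD, n = 3) in 89-day tadpoles, a difference of 0.646 years (exact two-sided permutation p = 0.1, the smallest possible). For held-out adults the predictions were 0.671 to 1.22 years in NIGERIAN F8 at 269 days, 1.72 to 2 years in Xtr.Tg(cryga:GFP)Grngr at 273 days and 1.49 to 2.44 years in SUPERMAN F8 at 332 days. The 177-day tadpoles fell within the range of the first of these adult groups and below the other 2. A model of linear age instead gave predictions of 1.2 and 1.06 years in 177-day tadpoles and -0.22, 0.5 and -1.33 years in 89-day tadpoles. There, 2 of the 89-day predictions were below the labelled age, and both 177-day predictions were above the range of NIGERIAN F8 adults, -0.972 to 0.758 years. The MedAE of held-out adults was 1.08 years, larger than the difference between the tadpole ages, and the tadpoles lie outside the training ages and tissue. The ages of the training adults are tied to strain and tank, and the part of these in the predictions was not tested.

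**Figure D5:**
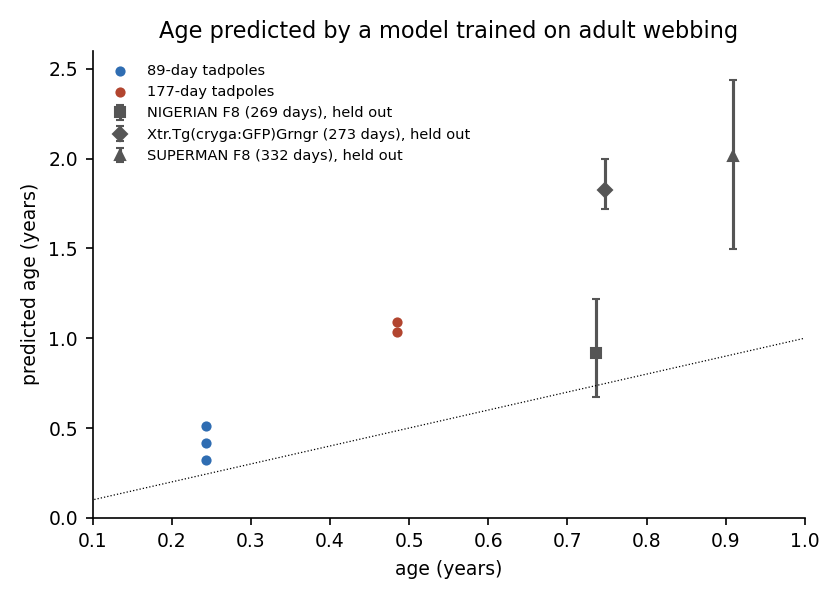
Predicted age (years) against labelled age (years) from an elastic net trained on 187 adults. Points are single tadpoles, and grey symbols with bars are the median and range of held-out adults of the 3 groups under 1 year. The dotted line marks equality. The 177-day tadpoles lie at 1.04 and 1.09 years and the 89-day tadpoles at 0.321 to 0.51 years.

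The filter set aside 543 CpGs with 3 levels across the frogs, a pattern of sites where strains can differ in their DNA sequence. Among these, both 177-day tadpoles were above all 89-day tadpoles at 107 (19.7%) and below them at 192 (35.4%), where the shares over the tested CpGs were 21.7% and 25.7%. The 177-day mean was higher by 0.3 or more at 40 of the 543 and lower by as much at 79. Differences of 0.3 were not counted over the tested CpGs. Of those 6174 CpGs, the 177-day mean was higher by 0.2 or more at 48 and lower by as much at 377. At 17 CpGs both 177-day tadpoles were below 0.006 and all 89-day tadpoles above 0.3, and at 10 the reverse held. Of the tested CpGs, 10 had any tadpole value below 0.006, and the filter itself uses such values. The 2 groups are of different strains, and a change of the DNA sequence and a change of its methylation cannot be told apart at single sites.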

How the data were processed

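TBS was carried out on 187 webbing punches and 5 whole tadpoles. The authors trimmed reads (fastp and SAMtools 1.11 are among the tools in the submitters' processing notes), used BiSulfite Bolt with the v10.0 genome and deposited 6717 CpGs by 192 frogs as fractions of methylated reads, all covered by at least 100 reads. Columns with digits as names were recorded under another unit, but all hold fractions from 0 to 1. The depth used as a weight came from the study's sample sheet.

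CpGs were removed when a Gaussian mixture of 3 components beat 1 by a BIC difference above 90 and the smallest value was below 0.006 (scikit-learn 1.9.0). The tadpole ages were compared with limma 3.58.1 (R 4.3.3) on log2((level + 0.001)/(1 - level + 0.001)) over 2 and 3 samples, with p-values adjusted by Benjamini-Hochberg and called below 0.05. At an unadjusted p below 0.05, 1906 CpGs passed. Single values were compared by exact permutation (scipy 1.17.1). The clock had an l1_ratio of 0.5 and 5 folds of whole strain-age groups. In simulated data of 6174 CpGs, limma recovered 0, 161 and 200 of 200 CpGs shifted by 1, 2 and 4 on the log2 logit scale, with 0, 9 and 8 false calls. The simulated CpGs varied independently, with a spread drawn from the limma fit itself. Dependence between neighbouring CpGs and shifts shared by a whole tadpole or tank were not simulated, so these counts do not cover them. The mixture filter and the clock were also tested on simulated data.

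CpGs were named by rule: the 10 largest rises and falls whose groups do not overlap, 1 per region; the 5 regions with the most calls in each direction; the 2 strongest adult age correlations of either sign; and up to 3 called CpGs per gene list. CpGs close to 0 in 89-day tadpoles were added after their values were seen. The comparison and gene lists were chosen with earlier results of these data known. The gene table used gives no strand, so distances to gene ends replaced those to gene starts. A part of the probe table, 1980 probes of 120 bases, gave the sequences. Probe starts were read as counted from 0, and 3133 of 3164 CpGs inside a probe then had CG at their position. Alternatives concerned the filter, scale, spread, weights, regions and single tadpoles.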

Additional observations from a re-analysis of the deposited data

How the results depend on the processing

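No paired analysis was possible because the tadpoles of the 2 ages are different animals from different tanks. Falls outnumbered rises in 177-day tadpoles under every alternative run. The main counts were 290 rises and 721 falls. The count of rises was 651, beside 1027 falls, with the spread taken from the 36 samples under 1 year. It was 114 at an adjusted p below 0.01 (442 falls) and 127 with a difference of at least 0.1. For region means, 156 regions rose and 431 fell of 2141 tested. The main counts are of 6174 CpGs, so the counts of regions cannot be set against them directly. Leaving out 1 tadpole gave 138 to 508 rises and 481 to 666 falls. Weighting by depth gave 213 rises and 620 falls. The other counts stayed within 1.5 times the main ones.

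The difference in mean methylation was -0.0241. It was 0.00492 when the median over CpGs replaced the mean, -0.0424 for region means, and -0.0295 to -0.017 with 1 tadpole left out. The differences in distance from young adults became -0.0458 (NIGERIAN F8), -0.0459 (Xtr.Tg(cryga:GFP)Grngr) and -0.0477 (SUPERMAN F8) without the mixture filter, and the 2 ages stayed apart on the logit scale. The predicted ages differed by 1.48 years with linear age, where 2 of the 89-day predictions were negative, and by 0.829 years with adults of 8 years or less, against 0.646 years in the main fit. Most of the 32 named CpGs were picked for large differences between these same tadpoles. Alternatives of filter, scale, spread or weights leave the difference in level itself unchanged, so only the call could change there. Of 448 values of these CpGs under alternatives, 436 kept direction and call, 8 lost the call, 2 gained it, and 2 changed sign. Both sign changes were at Chr4:98635904 in cop1 (-0.0767 without 177-day tadpole 2 and -0.00883 without 89-day tadpole 1, within a range of -0.0767 to 0.089). The causes were not tested.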
